A study of Mus musculus with 4 samples.

Results

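The core pluripotency transcription factors described here are 9 genes: Pou5f1, Sox2, Esrrb, Nr5a2, Nr0b1, Sall4, Tfcp2l1, Tbx3 and Zfp42. They were chosen by name, and their probes were found on the array through the RefSeq accession that each probe carries. All 9 had a probe, 11 probes in all, out of 33378 genes and transcripts on the array. The filter on low values kept 21216 genes and transcripts above background on at least 1 array, and all 9 factors passed it through the stem cell arrays on which they are bright.

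Gene expression was measured in 4 mouse RNA samples, each on its own single-colour Agilent array. The induced pluripotent stem (iPS) samples were lines 7 and 13 (n = 2), made from bone marrow mononuclear cells of strain C57BL/6 mice that carry an Oct4-EGFP transgene (Oct4 is the protein of Pou5f1). The embryonic stem (ES) cells were E14, a line of strain 129 (n = 1). The bone marrow mononuclear cells (BMMNCs), the nucleated cells of marrow that include blood precursors, came from C57BL/6 (n = 1). ES and iPS cells grew with serum and leukaemia inhibitory factor on a layer of irradiated embryonic fibroblasts, and preplating on gelatin reduced those feeder cells ahead of RNA isolation. The labels give the iPS samples by line number alone. They give neither the age, number or sex of the animals nor the factors used for reprogramming, and strain, cell of origin and reporter all separate the iPS lines from the ES cells.

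In mouse ES cells Pou5f1 and Sox2 proteins bind DNA side by side at enhancers of each other and of many other stem cell genes. Around this pair stands a set of factors that hold cells in the naive state of the early epiblast, among them the nuclear receptors Esrrb and Nr5a2, the CP2 family factor Tfcp2l1 and the T-box factor Tbx3, while Zfp42, also called Rex1, has long been used as a marker of that state. Differentiated blood cells do not use this circuit, and reprogramming switches it back on.

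Levels below are log2 signals relative to the 75th percentile of probe signal on the same array, so a level can be compared between arrays for 1 gene but not between genes. Between 54.6% and 59.0% of probes were well above background on an array. All 7 genes of an ES marker list were above background on the ES array and on both iPS arrays. In BMMNCs 5 of these 7 were above background as well, but the list's summed signal was 0.92 times the 75th percentile, against 530.9 on the ES array. All 12 genes of a blood list were above background in BMMNCs. Of these 12, 7 also passed background on the ES array, the same number for line 7, and 6 for line 13. Detection alone therefore did not separate the cell types. The summed signal of the blood list was 1604 times the 75th percentile in BMMNCs. It was 1.87 for line 7, 1.91 for line 13 and 1.75 for ES cells. All 12 fibroblast genes were above background in the iPS and ES samples too, with a summed signal of 574 in line 7, 539.7 in line 13, 493 in ES cells and 87.2 in BMMNCs. In BMMNCs 6 of the 12 were above background, and most of that sum came from Vim (level 6.26), with Thy1 next (2.89). The part of the fibroblast genes' source cells in the levels below was not tested. In such bulk samples, fewer cells that express a gene and less RNA per cell cannot be told apart.

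The first comparison asked how far the factors had come up in the reprogrammed lines from the marrow cells. All 9 rose in the iPS lines against BMMNCs (limma, Benjamini-Hochberg adjusted p between 0.000703 and 0.00136), where 75.6% of all genes tested passed, 38.3% up and 37.4% down. Of the 9, 8 were not well above background in BMMNCs and passed the filter only through the stem cell arrays, so they had to differ and this count is a description; Sall4 alone was measured on both sides. By a rule of at least 4-fold with the brighter side well above background, 9 of 9 were also higher, against 15.3% of all genes higher and 14.9% lower, 30.2% together; with normexp background correction or median scaling the count was 8, because Sall4 was just short of the rule (log2 difference 1.96 with normexp and 1.999 with median scaling). With those 8 set at their lower bounds, the median log2 difference over the 9 factors was at least 8.38, against a fitted median of 0.01 over all genes tested. This comparison rests on 1 BMMNC array, and the fit takes that array to vary as the iPS lines do.

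**Figure D1:**
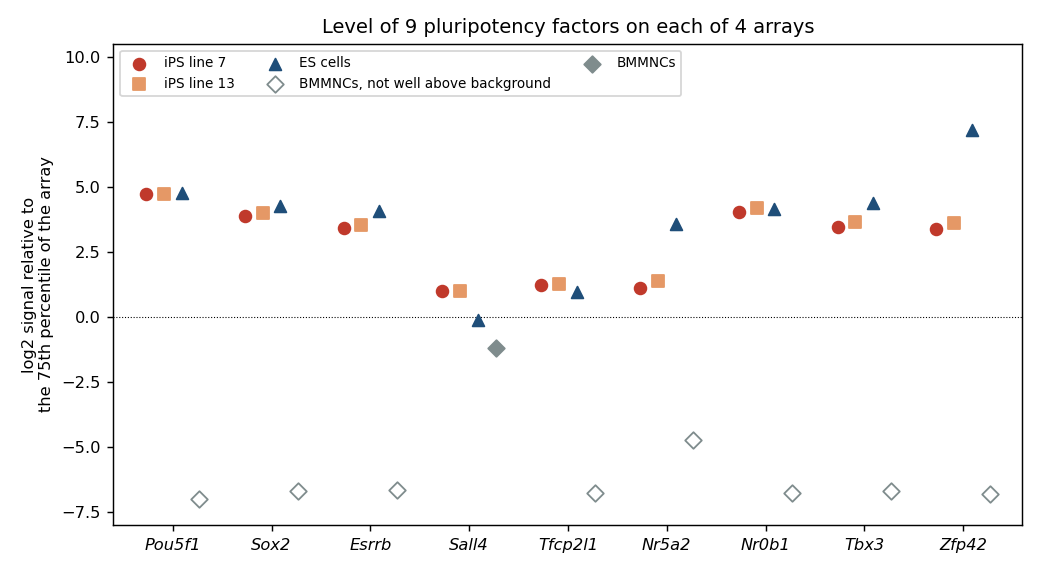
Level of each factor on each array, as log2 signal relative to the 75th percentile of that array; each point is 1 array, and an open diamond marks a BMMNC signal not well above background. The iPS and ES points of all 9 factors lie above the BMMNC point, Zfp42 and Nr5a2 show a gap between the iPS lines and ES cells, and Sall4 is the factor with a filled BMMNC point.

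The 8 factors not well above background in BMMNCs had measured levels there between -7.02 (Pou5f1) and -4.72 (Nr5a2), and their fold changes are lower bounds, the mean of both iPS lines over the lowest signal that any probe well above background had on the BMMNC array, or over the gene's own signal where that was higher. For Pou5f1 the iPS lines were higher by at least 784-fold, for Nr0b1 504.7-fold, for Sox2 453-fold, for Tbx3 349-fold, for Zfp42 333-fold and for Esrrb 329.9-fold. The bounds were lower for Tfcp2l1, at least 70.3-fold, and for Nr5a2, at least 62.5-fold. Sall4 was the exception. It was well above background in BMMNCs, at -1.21, and stood 4.62-fold higher in the iPS lines (log2 difference 2.21, SE 0.093, adjusted p = 0.00136).

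ES cells were set against BMMNCs as a description of 1 array each. By the same rule of 4-fold, 8 of the 9 were higher in ES cells, against 17.3% of all genes higher and 15.8% lower, 33.1% together. Zfp42 was at least 4295-fold and Pou5f1 at least 795.6-fold higher in ES cells. These 8 are the factors not well above background in BMMNCs, which passed the filter only through the stem cell arrays, so the count says little beyond that. Sall4, the factor measured on both sides, was 2.11-fold higher and did not reach the rule.

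The second comparison set the iPS lines against ES cells, the standard for the pluripotent state. Against ES cells 2 of the 9 factors fell in the iPS lines, Zfp42 and Nr5a2, and 1 rose, Sall4 (limma, adjusted p of 0.05), while 4.78% of all genes passed, 2.81% down and 1.97% up. By size, Zfp42, Nr5a2 and Sall4 were at least 2-fold apart, where 6.51% of all genes were, 2.36% higher and 4.15% lower. The other 6 did not pass, and the median difference over the 9 was -0.33, against -0.05 over all genes. These calls sit close to the threshold and depend on the processing: no gene on the array passed with the authors' value table, without the filter on dim probes or with the percentile taken over probes bright on all arrays, while 6 factors passed with normexp background correction and 7 with an intensity trend in limma.

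**Figure D2:**
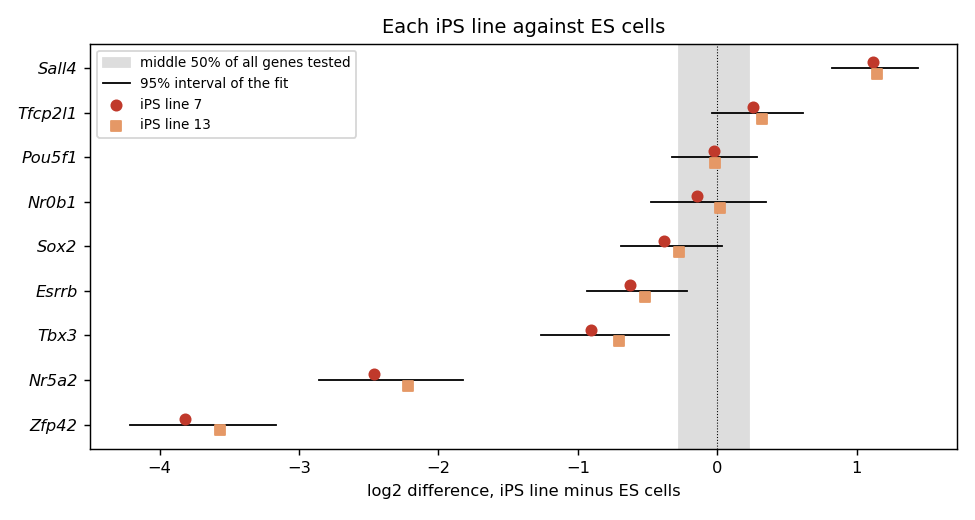
Log2 difference of each iPS line from ES cells (horizontal axis) for the 9 factors; circles and squares are lines 7 and 13, black bars the 95% interval of the fitted mean difference, and the grey band holds the middle 50% of all genes tested (-0.28 to 0.22). Zfp42 and Nr5a2 lie far to the left, Sall4 to the right, and both lines lie close together for every factor.

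Pou5f1, the POU factor without which the pluripotent epiblast does not form, was at 4.73 in line 7 and 4.74 in line 13, against 4.75 in ES cells. The lines stood at 98.2% and 98.9% of the ES signal. The fitted difference was -0.02 (SE 0.092, 95% interval -0.33 to 0.28, limma adjusted p = 0.886), and its sign turned under 4 other settings. The files hold no probe sequences, so it is not known here which part of the transcript the probe reads or whether it would also read a delivered reprogramming copy. The same limit holds for the other probes, among them those of Sox2 and Klf4.

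Sox2, the HMG-box partner of Pou5f1, was at 3.89 in line 7 and 3.999 in line 13, against 4.27 in ES cells. Both lines lay below the ES array, at 76.6% and 82.7% of its signal, and the difference of -0.33 did not pass (SE 0.11, 95% interval -0.69 to 0.03, limma adjusted p = 0.179). It passed in 1 of 8 other settings, the intensity trend (limma adjusted p = 0.0084).

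Among the 3 nuclear receptors, Nr5a2 had the largest difference. Nr5a2, also called LRH-1, binds regulatory DNA of Pou5f1 in mouse stem cells. Its level was 1.12 in line 7 and 1.37 in line 13, against 3.59 in ES cells, so that the lines held 18.1% and 21.4% of the ES signal. The gap to ES cells was far wider than the gap between the lines, and the fall was 5.08-fold (log2 difference -2.34, SE 0.16, limma adjusted p = 0.0449). Of 630 genes on chromosome 1 above background on the ES and both iPS arrays, 1 had a lower difference.

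Esrrb, an orphan receptor that can sustain self-renewal, was at 3.43 in line 7 and 3.54 in line 13, against 4.06 in ES cells. Both lines lay below ES cells, at 64.6% and 69.6% of the signal, with a difference of -0.58 that did not pass over all genes (SE 0.11, 95% interval -0.93 to -0.22, limma adjusted p = 0.0954). It passed with normexp (adjusted p = 0.013) and with the intensity trend (adjusted p = 4.84e-05). Nr0b1, or Dax1, an unusual receptor that lacks the common DNA-binding domain and binds Oct4 protein, was at 4.02 in line 7 and 4.18 in line 13, against 4.16 in ES cells. The ES level lay between those of the lines. The difference was -0.06 (SE 0.12, 95% interval -0.47 to 0.35, limma adjusted p = 0.759).

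Sall4, a zinc finger factor that binds beside Oct4, was the factor that rose. Line 7 stood at 0.99 and line 13 at 1.01, against -0.13 in ES cells, and the 2 lines nearly coincided. The rise was 2.19-fold (log2 difference 1.13, SE 0.093, limma adjusted p = 0.0462). The level was highest in the iPS lines, then in ES cells, then in BMMNCs, with 1.08 between ES cells and BMMNCs on the log2 scale.

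Tfcp2l1, a naive state factor downstream of leukaemia inhibitory factor, was at 1.22 in line 7 and 1.29 in line 13, against 0.97 in ES cells. Both lines lay above the ES array, and the difference of 0.29 did not pass (SE 0.098, 95% interval -0.04 to 0.61, limma adjusted p = 0.185). It passed with normexp (adjusted p = 0.0477) and with the intensity trend (adjusted p = 0.0375). A dimmer probe of the gene, at -2.61, -2.66 and -3.30 in line 7, line 13 and ES cells, differed by 0.67. Tbx3, the T-box factor, was at 3.46 in line 7 and 3.67 in line 13, against 4.37 in ES cells. The lines held 53.3% and 61.3% of the ES signal, and the difference of -0.81 did not pass (SE 0.14, 95% interval -1.27 to -0.35, limma adjusted p = 0.0866), although it did with normexp and with the intensity trend.

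Zfp42 was the factor furthest from ES cells. It encodes a zinc finger protein related to Yy1, and mouse ES cells that lack it still renew themselves. Line 7 had 3.37 and line 13 had 3.62, against 7.19 in ES cells and a signal not well above background in BMMNCs. The lines held 7.11% and 8.45% of the ES signal, and the fall was 12.9-fold (log2 difference -3.69, SE 0.16, 95% interval -4.21 to -3.17, limma adjusted p = 0.0425). It ranked 53rd from the lowest of 21216 genes tested. A separate probe of Zfp42 was at 1.42 in line 7 and 1.67 in line 13, against 6.47 in ES cells, a difference of -4.92. Both probes put the 2 lines together and far below ES cells, but they differ in size, 12.9-fold and 30.4-fold.

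The promoters of the 2 factors that fell and of Pou5f1, whose level was close to that of ES cells, are shown so that the regulatory DNA in question can be read beside these values. Sequences are from RefSeq's promoter table of build GRCm38.p6, the C57BL/6J genome, so the E14 alleles of strain 129 may differ. Each runs 5′ to 3′ on the strand of the gene, from 250 bases before a transcript start to 50 after it. Such a window was found for 7 of the 9 factors (Nr5a2, Pou5f1 and Esrrb have windows at 2 starts each, and both are given for Nr5a2 and the one with a match for Pou5f1). Capitals mark matches, on either strand, to the octamer ATTTGCAT that POU factors bind, the SOX core CTTTGTT, the extended nuclear receptor half-site AAGGTCA, or the GC box GGGCGG.
Zfp42, chr8:43306960-43307259, minus strand: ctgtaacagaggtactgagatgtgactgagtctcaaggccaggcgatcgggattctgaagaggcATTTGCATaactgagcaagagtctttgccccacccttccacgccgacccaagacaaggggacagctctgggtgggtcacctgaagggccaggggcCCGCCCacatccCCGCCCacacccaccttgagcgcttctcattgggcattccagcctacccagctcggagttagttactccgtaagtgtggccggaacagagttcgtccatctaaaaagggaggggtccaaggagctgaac
Nr5a2, chr1:136960399-136960698, minus strand: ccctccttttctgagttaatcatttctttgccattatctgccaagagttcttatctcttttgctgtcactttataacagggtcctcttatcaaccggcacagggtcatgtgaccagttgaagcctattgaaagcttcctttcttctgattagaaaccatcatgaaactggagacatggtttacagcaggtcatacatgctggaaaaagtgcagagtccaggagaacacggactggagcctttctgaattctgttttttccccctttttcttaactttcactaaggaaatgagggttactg
Nr5a2, chr1:136953581-136953880, minus strand: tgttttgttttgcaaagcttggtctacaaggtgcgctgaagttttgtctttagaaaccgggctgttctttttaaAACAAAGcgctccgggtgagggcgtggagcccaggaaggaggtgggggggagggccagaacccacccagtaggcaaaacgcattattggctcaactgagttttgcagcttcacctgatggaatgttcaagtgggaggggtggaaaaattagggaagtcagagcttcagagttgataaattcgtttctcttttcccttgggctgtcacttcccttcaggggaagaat
Pou5f1, chr17:35505782-35506081, plus strand: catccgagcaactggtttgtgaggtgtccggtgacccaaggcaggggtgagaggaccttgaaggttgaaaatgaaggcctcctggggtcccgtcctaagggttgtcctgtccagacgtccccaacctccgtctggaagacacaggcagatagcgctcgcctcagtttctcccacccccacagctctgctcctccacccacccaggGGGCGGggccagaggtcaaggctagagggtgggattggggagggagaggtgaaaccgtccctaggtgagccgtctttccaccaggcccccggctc

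The Zfp42 window holds the octamer, which begins 186 bases before the start, and 2 GC boxes on the opposite strand. The octamer is in 1.74% of the 32851 windows of that table, and in none of the other 9 windows of these factors. A GC box, held by 35.7% of all windows, is also in the Pou5f1 window shown, 45 bases before the start, and appears in 2 places in that of Sox2. The second Nr5a2 window holds 1 SOX core, which 5.85% of all windows hold. The exact letters AAGGTCA of the half-site, in 4.72% of all windows, were in none of the 10. Only exact letters were searched for each motif. Close variants, such as the gaggtca in the Pou5f1 window shown, were therefore not counted, and a nuclear receptor site is not excluded. Matches of this kind describe the letters and are not evidence of binding.

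Zfp42 lies on chromosome 8, whose genes stood lower in the iPS lines as a group, with a median difference of -0.39 over 601 genes above background on the ES and iPS arrays. The medians of the chromosomes of the other 8 factors lay between -0.03 and 0.01. Zfp42 had the lowest difference of the 601, and measured from the chromosome's median it was still 3.30 lower on the log2 scale. Its neighbours moved unevenly. Triml1, the tested gene just before Zfp42 in gene order, was at 0.94 in line 7 and 1.12 in line 13, against 2.93 in ES cells, and fell by 1.90 (SE 0.13, limma adjusted p = 0.0451). Triml1 was not well above background in BMMNCs, as Zfp42 was not. Adam26a, the tested gene just after Zfp42, differed by -0.09 (SE 0.21, limma adjusted p = 0.79). It was dim, at -4.65 in line 7, -4.29 in line 13 and -4.38 in ES cells. The lowest level of a probe well above background in ES cells was -5.08, so a fall as large as that of Triml1 could not have been seen.

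Within 20 tested genes on each side of Zfp42, 35 were above background on the ES and both iPS arrays, with a median of -0.36 and 29 below 0. The chromosome's own median was -0.39, so this stretch was not lower than the chromosome as a whole. Of these 35, 3 fell and none rose past the threshold, where 2.81% of all genes tested fell and 1.97% rose. The 3 were Triml1, Frg1 (-1.91) and Pdlim3 (-2.19), the last 2 named after their values were seen. Frg1, above background in all 4 samples, had levels of 0.66 (line 7), 0.68 (line 13), 2.58 (ES cells) and 1.32 (BMMNCs). Fgl1, in the same stretch but not well above background in ES cells, rose (limma adjusted p = 0.0425).

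**Figure D3:**
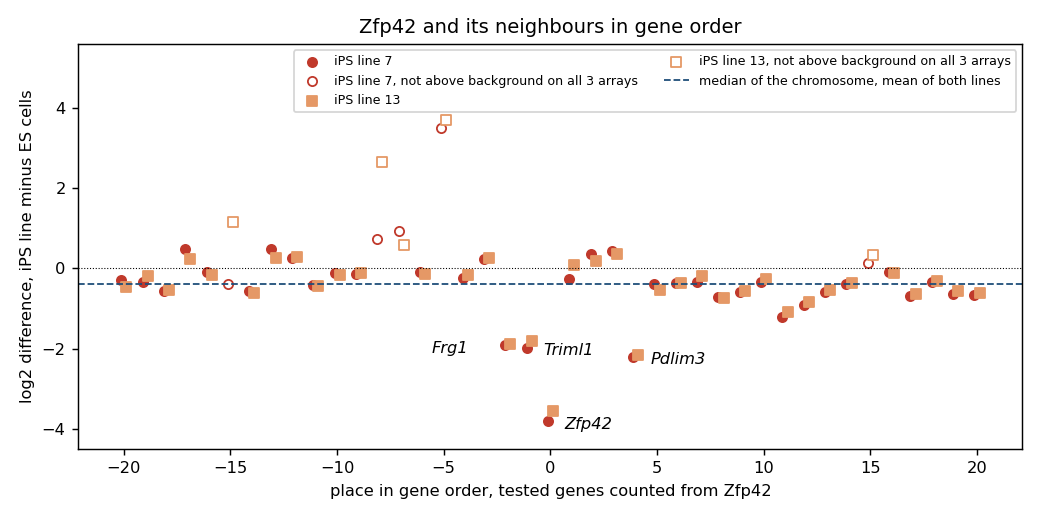
Difference of each iPS line from ES cells (vertical axis, log2) for Zfp42 and the 20 tested genes on either side of it in gene order (horizontal axis); open symbols are genes not above background on all 3 arrays, and the dashed line is the median of the chromosome. Zfp42 is the lowest point, Frg1, Triml1 and Pdlim3 lie near -2, and most other genes lie between -1 and 0.5.

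The other factors had no neighbour that passed. For Nr5a2 the nearest tested genes in gene order were Zfp281, which differed by 0.07, and Ptprc, by -0.21, while Nr5a2 fell by 2.34. For Sall4 they were Atp9a, by 0.57, and Zfp64, by -0.26.

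Lines 7 and 13 were close to each other for all 9 factors. None was 2-fold apart, where 2.44% of all genes tested were. By the brightest probe, line 7 was lower than line 13 for 9 of 9, by 0.01 (Pou5f1) to 0.25 (Zfp42) on the log2 scale. Of the 17546 genes above background in both lines, 58.6% were lower in line 7. Of the dimmer probes, that of Zfp42 was lower in line 7 too (-0.25), and that of Tfcp2l1 was higher (0.06). The direction held for 7 of 9 with the authors' value table or the percentile over probes bright on all arrays and for 8 of 9 with quantile normalization, so the scaling can turn it. The fibroblast list had a median of 0.10 for line 7 over line 13, the opposite direction, and its part in the small gap was not tested.

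By pattern, the nearest gene to each factor was sought over the 4 arrays, as the root mean square difference of log2 levels after each gene was centred on its own mean, among 11465 other named genes above background on the ES and iPS arrays. Of the factors, 3 had another as their closest or second closest gene: Sox2 lay nearest to Nr0b1 (0.13), Tbx3 nearest to Esrrb (0.13), and Esrrb nearest to Gjc1 (0.12) with Tbx3 next. Pou5f1 lay nearest to Dppa5a (0.09), with the collagen gene Col3a1 next (0.21). Sall4 lay nearest to Dmrt3 (0.06), Tfcp2l1 to Zfp532 (0.04), Nr0b1 to Fermt2 (0.09) and Nr5a2 to Sycp3 (0.25). Zfp42 had no close match: the nearest gene, Fbxo15, was 1.12 away. The likeness is over 4 points, of which the BMMNC array lies far from the other 3 for most of these genes. For 8 of the 9 factors the BMMNC level was not well above background. Their distances therefore rest partly on background signal, and the order of the nearest genes is a description only.

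Of 25 tested partner regulators none rose and 2 fell against ES cells, where 1.97% of all genes tested rose and 2.81% fell. The 2 were Sall1 (-1.41, limma adjusted p = 0.0451) and Nacc1 (-0.99, limma adjusted p = 0.04996), and the list median was -0.05. Both lie on chromosome 8, as do Klf2 (-0.97) and Thap11 (-0.58), and all 4 had lower values in the iPS lines, a grouping made after the values were seen. The 21 partners elsewhere ranged from -0.43 to 0.44. Klf4, a Krüppel-like reprogramming factor, differed by -0.01. Against BMMNCs 18 of the 25 rose and 6 fell, where 38.3% of all genes tested rose and 37.4% fell. The risers included Tcf7l1, which represses stem cell genes in the Wnt pathway (log2 difference 7.66), and Mycn (log2 difference 6.17). Gbx2, Sall1, Foxd3 and Etv5 were not above background in BMMNCs and passed the filter only through the stem cell arrays, so they had to differ.

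Among 8 tested genes with known sites for Oct4 and Sox2 together or downstream of them, all 8 rose against BMMNCs, as 38.3% of all genes tested did. In BMMNCs 5 of them were above background. The others, Fbxo15, Tdgf1 and Dppa4, passed the filter only through the stem cell arrays and had to differ, Fbxo15 being at least 736.7-fold higher. Against ES cells 1 fell and none rose, where 2.81% of all genes tested fell and 1.97% rose. The gene that fell was Lefty1, a secreted inhibitor of Nodal. Its levels were 2.04 (line 7) and 1.88 (line 13), against 4.15 in ES cells (log2 difference -2.19, SE 0.13, limma adjusted p = 0.0425). Utf1, a chromatin protein with a well studied Oct4 and Sox2 enhancer, differed by 0.33 and Fbxo15 by -0.94, and neither passed. Nanog and Fgf4 are not analysed here, since no probe was matched to them by name.

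Among relatives of the factors, 4 of 8 POU genes with a probe were tested. Pou3f1 and Pou3f3 rose against ES cells by 1.45 and 1.49, where 1.97% of all genes tested rose. Pou2f1 differed by -0.20 and did not pass. Pou3f1 had levels of 3.24 (line 7) and 3.28 (line 13), against 1.81 in ES cells, and is known as a factor of the formative epiblast, the state after the naive one. Sall1 fell by 1.41 where Sall4 rose. The relatives of Nr5a2, Esrrb and Tbx3, namely Nr5a1, Esrra and Tbx2, differed by -0.26, 0.16 and -0.01 and did not pass. None of 6 SOX relatives tested passed, with Sox11 at 1.33 and Sox15 at 0.89.

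**Figure D4:**
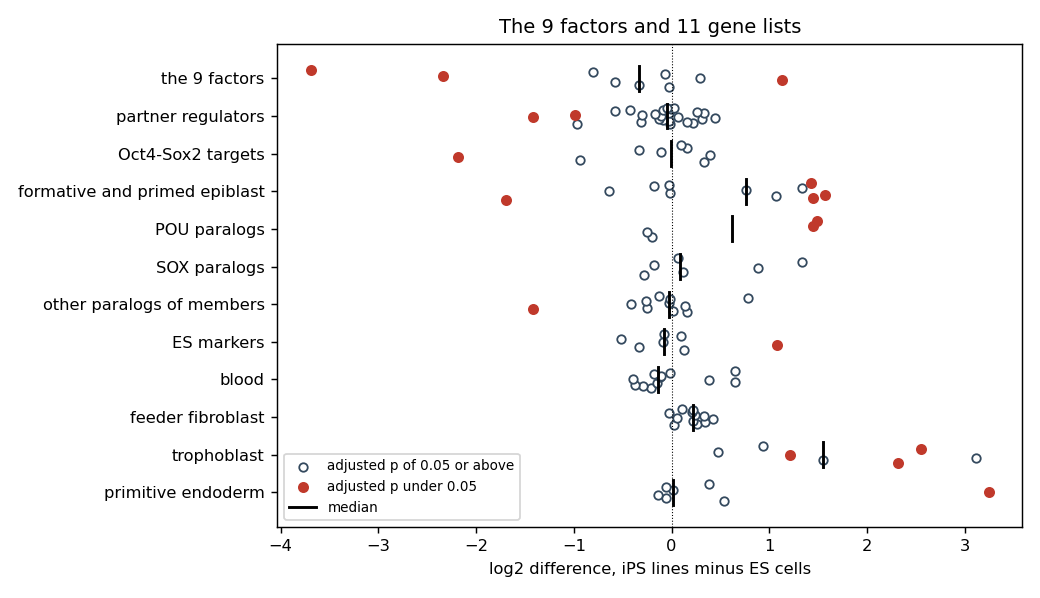
Log2 difference of the iPS lines from ES cells (horizontal axis) for the 9 factors and for 11 gene lists, 1 point a gene; filled points passed an adjusted p of 0.05 and black ticks are medians. The 9 factors spread from -3.69 to 1.13, and the fibroblast list from -0.03 to 0.43. Other lists spread widely too, among them the Oct4-Sox2 targets (-2.19 to 0.40) and primitive endoderm (-0.13 to 3.25). The trophoblast list lies to the right of 0.

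Genes of later or other early fates gave these values beside the factors. Over all genes tested, 1.97% rose and 2.81% fell against ES cells. In the formative and primed epiblast list 3 of 11 tested rose against ES cells, Dnmt3b (1.57), Pou3f1 and Cldn6 (1.43), and 1 fell, Otx2 (-1.69), with a list median of 0.76. In the trophoblast list 3 of 7 rose, Gata3 (2.55), Cdx2 (2.32), the trophoblast regulator that Oct4 opposes, and Esx1 (1.21), with a median of 1.55. Cdx2 was low in ES cells, at -3.43, and Elf5 and Hand1 of this list were not well above background there. In the primitive endoderm list 1 of 7 rose, Sox7 (at least 9.48-fold, since it was not well above background in ES cells), and the median was 0.02. Of the other lists, 1 of 7 ES markers rose, Dnmt3l (1.08), and none fell, and no gene passed in the fibroblast list (median 0.22) or the blood list (median -0.14). The fibroblast list's summed signal was higher in both lines than in ES cells, and its part in the factors' differences was not tested.

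**Figure D5:**
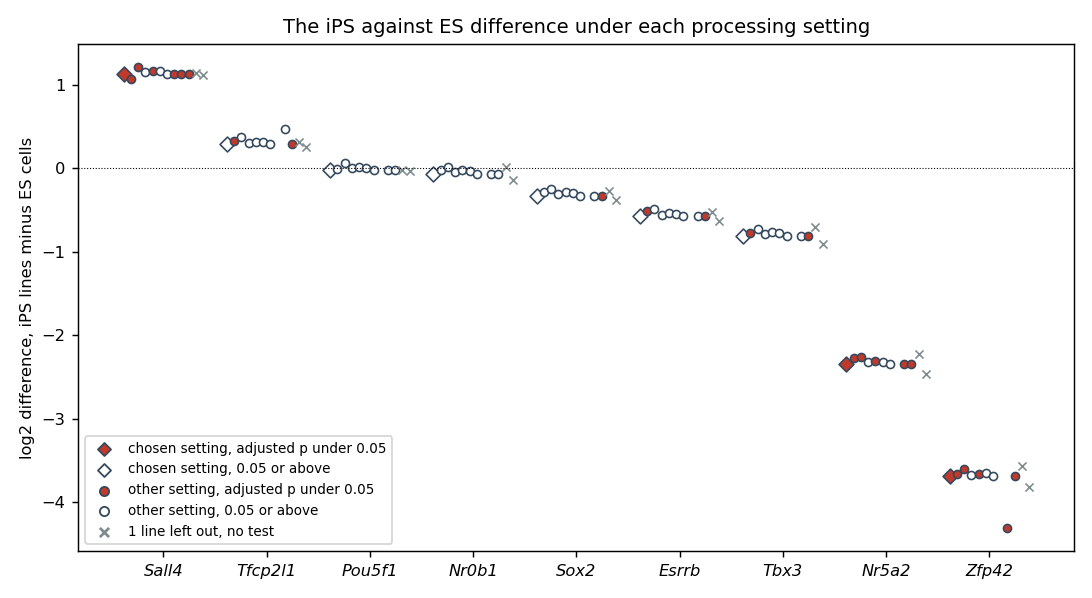
Log2 difference of the iPS lines from ES cells (vertical axis) for each factor under every processing setting; diamonds are the chosen setting, circles the others, filled where the adjusted p was under 0.05, and crosses leave out 1 line. The values of a factor lie close together except with the mean of probes, which gives -4.31 for Zfp42 and 0.48 for Tfcp2l1, while the fill changes with the setting.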

How the data were processed

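Cy3-labelled cRNA was measured on single-colour Agilent arrays, per the labels' protocols. The file headers give 1 slide and 1 scan time for all 4 arrays. Each spot's deposited intensity is the processed signal of Agilent Feature Extraction 9.5 (per the submitters' processing notes; 9.5.1.1 per the file headers), with background subtracted and detrended. The authors' value table, also intensity, equals this signal over a constant for each array. It is linear and uncentred, its medians were 135.9 (line 7), 133.6 (line 13), 139.9 (ES cells) and 106.2 (BMMNCs), and no source says how the constants were chosen.

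Here, control spots and 14 probes with outlier spots were dropped, log2 was taken, and the 75th percentile over probes was subtracted. Unversioned accessions named 22951 of 41174 probes through the RefSeq table of GRCm38.p6, used for names, chromosomes and gene order only, because the array's own build is older. Each gene took its brightest probe. limma 3.58.1 (R 4.3.3) fitted means of iPS lines, ES cells and BMMNCs to genes above background somewhere, with Benjamini-Hochberg adjustment over all of them. The spread comes from the 2 lines alone (1 residual degree of freedom), so each single array is assumed to vary as they do. The fit was also run on simulated data that gave a gene the same spread on all 4 arrays. Such data cannot test that assumption. Beyond line numbers no separate culture or animal is recorded, and the spread may be technical. The number of arrays limits precision, and the scanner software's error for a bright spot was about 10.0% of signal.

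The members and 11 gene lists (117 genes, 109 with a probe, 101 tested) were chosen with earlier results of these data known. The rule for named genes covers the 9 factors, the first 2 genes of each list with a probe, list genes past the threshold against ES cells, the nearest tested gene on each side of a factor, and the 3 genes closest in pattern. The text leaves out some of these, and other list genes that it names, and Frg1, Pdlim3 and Fgl1, were chosen after their values were seen. The files used have no mean signal, so normexp ran on median signals with an offset of 50.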

Additional observations from a re-analysis of the deposited data

Results flagged for a closer look

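Nr0b1 had opposite signs in the 2 lines relative to ES cells, with a difference of -0.144 in line 7 and 0.0153 in line 13 on the log2 scale. The median SD between repeat spots of a probe was 0.056 on the ES array and 0.054 on that of line 13, wider than the line 13 difference, whose sign therefore carries little. The difference between the lines was not tested, and each line is 1 array.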

How the results depend on the processing

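Differences of the 9 factors were recomputed under every other setting tried, where 133 tested single values kept their direction and side of the threshold, 10 lost and 7 gained a call, and 5 turned; of the values without a test, 35 kept their direction and 1 turned. Against ES cells, 3 factors passed in the chosen setting, with median scaling, quantile normalization and the mean of probes. The count was 6 with normexp background, 7 with the intensity trend, and 0 with the authors' value table, without a filter on dim probes and with the percentile over probes above background on all arrays; at an unadjusted p under 0.05 these last 3 gave 6, 5 and 6 factors, and 6634, 4677 and 6638 genes. Over all genes limma called 1015, against 5734 with normexp, 7586 with the trend and 5726 among genes above background on all arrays. That last setting leaves Sall4 alone of the 9, so the counts by limma were 1 against ES cells and 1 against BMMNCs. By size they were 1 for the iPS lines against ES cells and 1 for the iPS lines against BMMNCs. They were 0 for ES cells against BMMNCs and 0 for line 7 against line 13. With ES and iPS arrays as 1 group, 8 factors passed against BMMNCs, and Sall4 did not (1.83, adjusted p = 0.0616). The split of all genes against BMMNCs was 8121 risen and 7927 fallen, against 7459 and 10048 with normexp. Pou5f1 against ES cells turned to 0.062 with median scaling, 0.000156 with the percentile over probes above background on all arrays, 0.0136 with quantile normalization and 0.00986 with the authors' value table. Nr0b1 turned to 0.0188 with median scaling and to 0.0153 without line 7 (-0.144 without line 13). Without line 7 and without line 13 the size counts were 3 against ES cells and 9 against BMMNCs each time; these fits leave no residual degree of freedom and give values with no test. No paired analysis was possible because no pair of groups compared shares more than 1 replicate number, and the number 1 of the single ES and BMMNC samples was given in accession order. By the 4-fold rule against BMMNCs the count was 8 with normexp and with median scaling. Signals at background in BMMNCs limit 8 factors to lower bounds there.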
